A study of Rattus norvegicus with 38 samples.

Results

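Vessels and neurons of the same late SHRSP rats were compared. SHRSP rats are spontaneously hypertensive and prone to stroke, and the late stage was 32 to 34 weeks of age. The comparison used 10 of the series' 38 libraries: 5 from blood vessels and 5 from clusters of neurons, both cut from the cortex by laser microdissection. The numbers 378, 379, 381, 382 and 384 at the start of the titles were read as the animals and tied each vessel library to its neuron library. For context, the same difference was taken in late Wistar rats (32 to 34 weeks, 4 animals), in early SHRSP rats (24 to 25 weeks, 5 animals) and in early Wistar rats (24 to 25 weeks, 5 animals). The labels give no drug treatment, and name only strain, material and stage. The sources used here do not say how vessels and neurons were selected on the sections.

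A cortical vessel is built of endothelium, which forms the blood-brain barrier, and of pericytes or smooth muscle around it, with matrix proteins between them and astrocyte endfeet outside. Cortical neurons carry the machinery of synapses and excitability and are rich in RNA. Material cut around a vessel or a cluster of neurons can also hold other cells. In such mixtures, fewer cells of a type and less RNA per cell cannot be told apart.

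Genes are given by Ensembl ID (ID below), since the files do not pair IDs with names. The captured material could therefore not be checked against marker genes of endothelium, smooth muscle or neurons, and no role is given to an ID.

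The late SHRSP vessel libraries held 2561524 to 4963429 counts and the neuron libraries 2560625 to 3732940. Vessel libraries nevertheless held fewer IDs. At an equal depth of 1198386 counts, the smallest total in the series, 9145, 10428, 10616, 9579 and 11402 IDs were expected in the vessels of animals 378, 379, 381, 382 and 384. The neurons of these animals gave 13026, 12826, 12415, 12873 and 12809. Every vessel library lay below every neuron library, with 10234 ± 889 IDs in vessels and 12790 ± 226 in neurons (SD, n = 5 each; exact two-sided sign-flip permutation test, p = 0.062, the smallest that 5 pairs allow, adjusted p = 0.125 over 6 library measures). Vessel libraries also differed more among themselves.

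**Figure D1:**
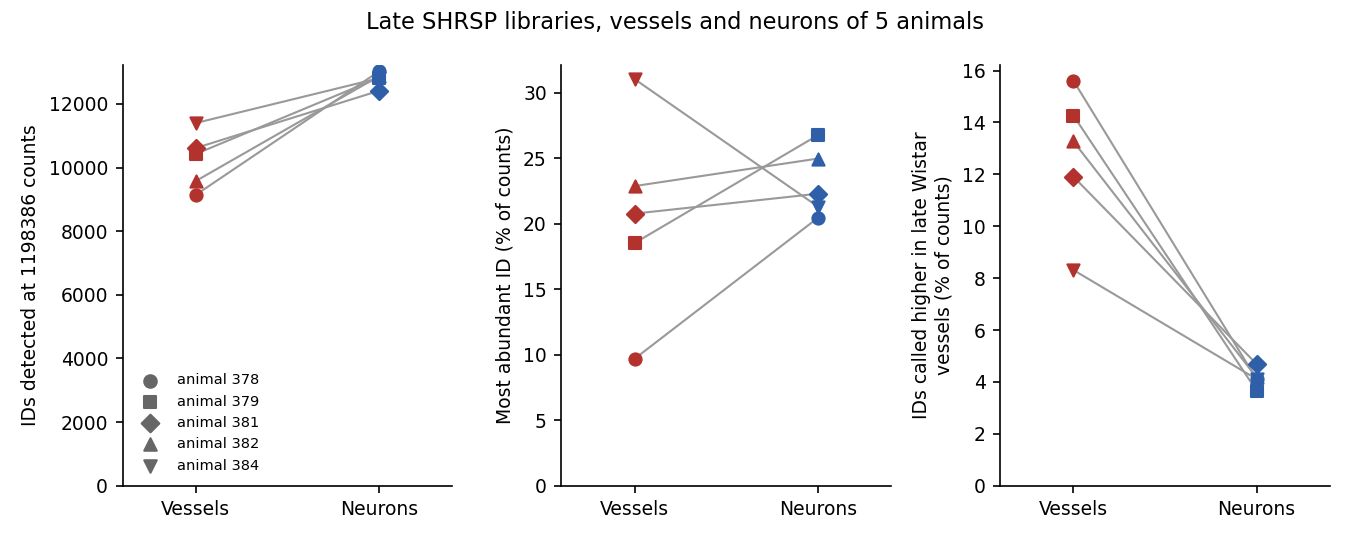
Library measures of 5 late SHRSP animals, vessels at the left and neurons at the right, with lines joining libraries of the same animal: IDs expected at 1198386 counts, share of counts of the most abundant ID, and share of counts of the 574 IDs called higher in late Wistar vessels. IDs were fewer in the vessels of all 5 animals, the most abundant ID overlapped between the materials, and the late Wistar vessel IDs took a larger share in the vessels of all 5 animals.

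The most abundant ID, ENSRNOG00000043866, did not separate the materials. It took 9.69%, 18.5%, 20.8%, 22.9% and 31.0% of the vessel counts of animals 378, 379, 381, 382 and 384, and 20.4%, 26.7%, 22.3%, 25.0% and 21.3% of their neuron counts. The vessel values lay on both sides of the neuron values, and animal 384 was the 1 animal with the larger share in vessels. The mean was 20.6% ± 7.70 in vessels and 23.1% ± 2.63 in neurons (SD, n = 5 each; exact sign-flip permutation test, p = 0.375, adjusted p = 0.45). This ID was chosen for its abundance after its values were seen. The 10 most abundant IDs of a library together took 35.9% ± 8.31 of the counts in vessels and 37.2% ± 4.21 in neurons (exact sign-flip permutation test, p = 0.875). In animal 384, 22 IDs held 50% of the vessel counts, whereas in animal 378 it took 288.

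Between vessels and neurons, 823 of the 10108 IDs tested passed (8.14%), 525 higher in vessels (5.19%) and 298 lower (2.95%). The calls were edgeR quasi-likelihood tests with the animal as a block, at a Benjamini-Hochberg adjusted p under 0.05. Among the called IDs, those higher in vessels had the larger folds. Their median log2 fold was 2.72, a 6.59-fold difference, and 130 of the 525 IDs had a log2 fold of at least 4. The lower side had a median log2 fold of -1.23, a 2.34-fold difference, and 8 of its 298 IDs reached a log2 fold of -4 or beyond. Over all 10108 IDs the balance was the other way, with 138 at a log2 fold of 4 or more and 282 at -4 or less, and 274 of these 282 were not called. Over all IDs tested the median log2 fold was -0.30, with the middle 50% between -0.997 and 0.33.

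The groups of called IDs also sat at different levels. The median of the mean levels was 72.3 CPM (counts scaled to a common library size) in vessels and 11.1 CPM in neurons for the IDs called higher. It was 88.1 CPM in vessels and 197 CPM in neurons for the IDs called lower. Over all IDs tested these medians were 25.8 CPM in vessels and 22.7 CPM in neurons. The IDs called higher were thus low in neurons, whereas those called lower were abundant in both materials. Of the IDs called higher, 3 had no count in any neuron library and 55 lacked a count in at least 1 of them, and 0 lacked a count in any vessel library. Of the IDs called lower, 2 had no count in any vessel library and 8 lacked a count in at least 1. Over all 10108 IDs, 121 lacked a count in at least 1 neuron library and 2712 in at least 1 vessel library. Of these 2712 IDs, 2704 were not called, so IDs with gaps in vessels were seldom called on either side. With the 3 higher and 2 lower IDs that had no count in 1 material set to the bound given by 3 counts over the empty group, the medians stayed at 2.72 and -1.23. Where both materials had counts, the log2 folds of called IDs reached 8.18 on the higher side and -7.17 on the lower.

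The share of IDs called rose with level on the lower side. Below a log2 CPM of 3, 3 of 1477 IDs were called higher and 2 lower. From 3 to 5, 183 of 4342 were called higher and 14 lower. From 5 to 7 the counts were 247 and 119 of 3216, and from 7 to 9 they were 68 and 123 of 925. At 9 and above, 24 of 148 IDs were called higher (16.2%) and 40 lower (27.0%). Among weakly expressed IDs the calls were thus mostly higher in vessels, and from a log2 CPM of 7 upwards more were lower.

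The spread between vessel libraries was smaller at higher levels. The median SD of log2 CPM over 5 vessel libraries was 1.96 below a log2 CPM of 3 and 0.34 at 9 and above, and over 5 neuron libraries it was 0.57 and 0.25. Its part in the calls was not tested. Of the 4289 IDs with a log2 CPM of at least 5, 3706 (86.4%) had the larger SD in vessels, with medians of 0.56 in vessels and 0.29 in neurons. The common biological coefficient of variation was 0.955 in vessels and 0.264 in neurons. In the model each ID has a single spread, used for vessels and neurons alike.

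**Figure D2:**
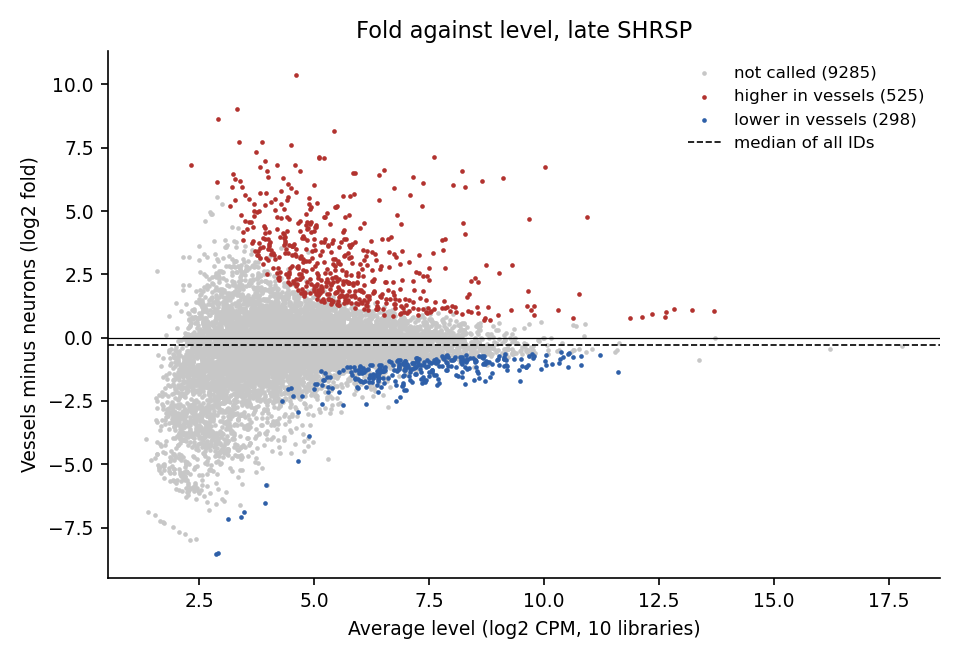
Log2 fold of vessels over neurons (vertical) against average log2 CPM over the 10 late SHRSP libraries (horizontal), 1 point per ID of 10108 tested. IDs called higher in vessels (525) reach large folds at low and middle levels, and IDs called lower (298) lie closer to the dashed median of -0.30 and mostly at high levels.

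The calls depended on the test and on single animals. DESeq2 called 2196 IDs, 849 higher and 1347 lower, so that the larger side turned, and limma voom called 1250, 675 higher and 575 lower. All 823 edgeR calls were among the DESeq2 calls with the same sign, and 815 were among those of limma voom. Without animal 379 the count was 444 (325 higher, 119 lower) and without animal 382 it was 482 (375 higher, 107 lower). Without the animal block 831 IDs were higher and 392 lower.

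The calls can be set beside the values of the libraries themselves. In 788 of the 10108 IDs (7.8%) all 5 vessel libraries lay above all 5 neuron libraries, and in 545 (5.39%) all lay below. Of the 525 IDs called higher, 490 were separated in this way, and of the 298 called lower, 224. The vessel minus neuron difference had the same direction in all 5 animals in 519 of the 525 IDs called higher and in 286 of the 298 called lower, against 2393 of all 10108 IDs (23.7%). These counts rest on the libraries that made the calls and are a description.

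ENSRNOG00000015550 had the smallest p of all IDs. It measured 2427, 2577, 1687, 2438 and 1224 CPM in the vessels of animals 378, 379, 381, 382 and 384, and 14.3, 27.5, 9.83, 27.4 and 21.5 CPM in their neurons. The lowest vessel library, that of animal 384, was still far above the highest neuron library. The ID averaged 2071 ± 588 CPM in vessels and 20.1 ± 7.88 CPM in neurons (SD, n = 5 each). Vessels exceeded neurons 106-fold (log2 fold of 6.72, SE 0.29, edgeR adjusted p = 2.99e-07).

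ENSRNOG00000018087 was the next ID on the higher side. Its vessel levels were 687, 827, 598, 597 and 336 CPM in animals 378, 379, 381, 382 and 384, and its neuron levels 7.17, 11.5, 8.51, 15.8 and 6.91 CPM. The materials did not overlap, and animal 384 again gave the lowest vessel value. It averaged 609 ± 179 CPM in vessels and 9.98 ± 3.73 CPM in neurons (SD, n = 5 each), a 61.1-fold difference (log2 fold 5.93, SE 0.27, edgeR adjusted p = 2.99e-07).

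ENSRNOG00000016541 had the smallest p on the lower side. It measured 246, 327, 311, 292 and 503 CPM in the vessels of animals 378, 379, 381, 382 and 384, and 1143, 1130, 902, 1013 and 1236 CPM in their neurons. The highest vessel library, that of animal 384, lay below the lowest neuron library. With 336 ± 98.3 CPM in vessels and 1085 ± 129 CPM in neurons (SD, n = 5 each), it was 3.31-fold lower in vessels (log2 fold -1.73, SE 0.18, edgeR adjusted p = 0.000142).

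ENSRNOG00000007456 followed. Its vessel levels were 27.7, 22.4, 53.7, 49.6 and 40.6 CPM in animals 378, 379, 381, 382 and 384, and its neuron levels 206, 171, 281, 157 and 157 CPM. Animal 381 was the highest in both materials, and the materials did not overlap. It averaged 38.8 ± 13.5 CPM in vessels and 194 ± 52.3 CPM in neurons (SD, n = 5 each) and was lower in vessels by 5.14-fold (log2 fold -2.36, SE 0.27, edgeR adjusted p = 0.000259). With all 38 libraries in the fit it did not pass (log2 fold -2.45, adjusted p = 0.11), and over its 12 alternatives the highest adjusted p was this one.

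**Figure D3:**
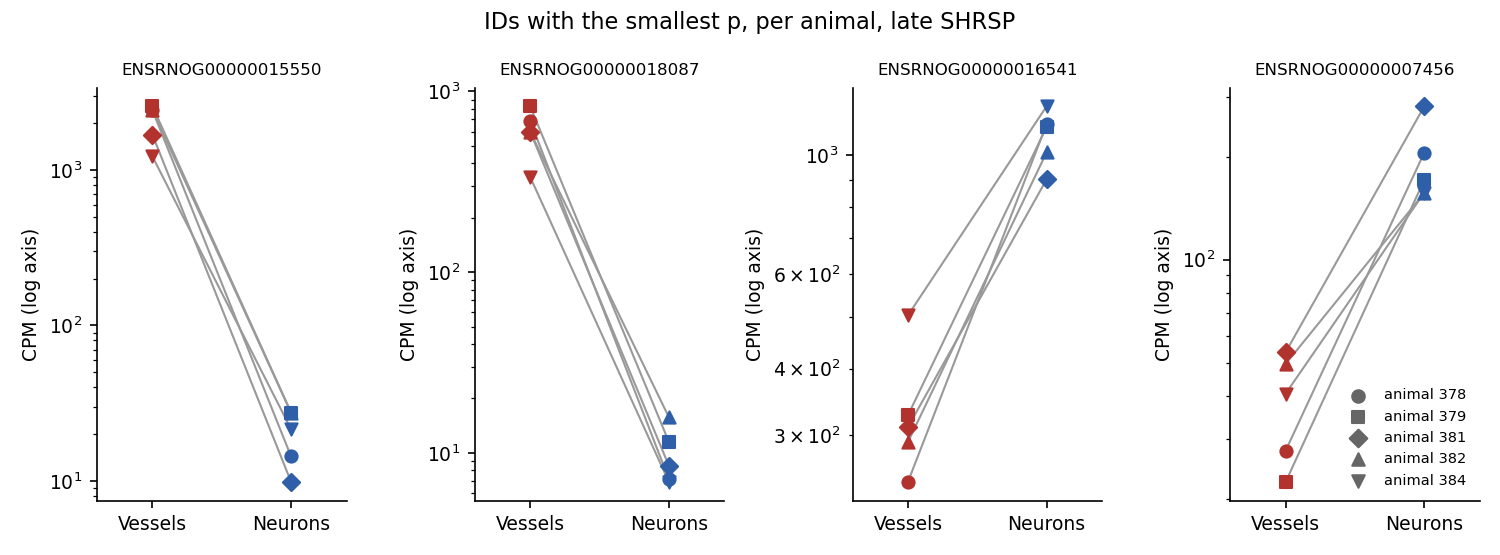
Levels in CPM (log axis) of the 2 IDs with the smallest p on each side, vessels at the left and neurons at the right, with lines joining libraries of the same animal. In each panel the 5 vessel libraries lie on 1 side of the 5 neuron libraries, with a wide gap for ENSRNOG00000015550 and ENSRNOG00000018087 and a narrower one for ENSRNOG00000016541 and ENSRNOG00000007456.

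The similarity of whole libraries also differed between the materials. Over the 10108 IDs, Spearman's rho between log2(CPM + 1) values was 0.712 to 0.796 among the 10 pairs of vessel libraries (median 0.745) and 0.899 to 0.967 among the 10 pairs of neuron libraries (median 0.945). A vessel library and the neuron library of the same animal had a rho of 0.647 to 0.797 (median 0.686), and of different animals 0.606 to 0.814 (median 0.716). These correlations are across IDs, which share depth and library, and are a description. The ranges for the same animal and for different animals overlapped.

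Late Wistar rats gave the nearest comparison, since they share the age and the materials but no animal with the late SHRSP rats. In a separate fit of their 8 libraries, 574 of 10292 IDs were higher in vessels (5.58%) and 349 lower (3.39%). Of the 525 IDs called higher in late SHRSP vessels, 500 were tested there, 497 had the same sign, and 366 were called. These 366 are 69.7% of the late SHRSP list and 63.8% of the late Wistar list. An ID nearly without neuron counts passes the low-count filter of that fit only through its vessel counts, which favours the same sign for such IDs. Of the 298 IDs called lower, all were tested, 294 had the same sign and 157 were called, which is 52.7% of the late SHRSP list and 45.0% of the late Wistar list. An ID called in opposite directions was not found (0 on either side). Over the 9763 IDs tested in both fits, 39.0% were above 0 and 61.0% below 0 in late Wistar rats.

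The folds can be set side by side. The 500 IDs had a median log2 fold of 2.57 in late SHRSP, where they were chosen, and of 2.28 in late Wistar rats. The 553 IDs called higher in late Wistar and tested in late SHRSP had a median of 2.17 in late SHRSP and of 2.25 in late Wistar rats, and 546 of them were above 0 in late SHRSP. For the 349 IDs called lower in late Wistar the median was -1.15 in late SHRSP and -1.40 in late Wistar rats, and 348 were below 0 in late SHRSP.

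**Figure D4:**
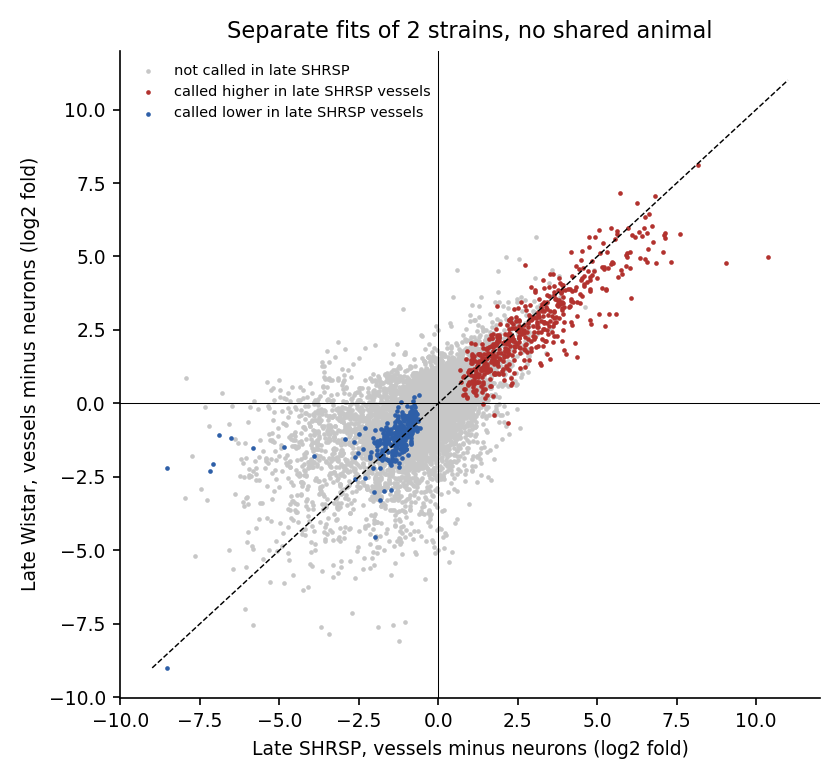
Log2 fold of vessels over neurons in late SHRSP (horizontal) and late Wistar rats (vertical), from separate fits without shared animals, 1 point per ID of the 9763 tested in both. The IDs called higher in late SHRSP vessels (red) lie along the dashed line of equal folds, with 497 of 500 above 0 in late Wistar rats, and those called lower (blue) lie below 0 in 294 of 298.

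As a measure chosen in other animals, the IDs called in late Wistar rats were summed in each late SHRSP library. Those called higher in late Wistar vessels took 15.6%, 14.3%, 11.9%, 13.3% and 8.31% of the vessel counts of animals 378, 379, 381, 382 and 384, and 4.11%, 3.67%, 4.69%, 4.18% and 4.11% of their neuron counts. Every vessel library lay above every neuron library, and animal 384 had the lowest vessel value. The means were 12.7% ± 2.79 in vessels and 4.15% ± 0.365 in neurons (SD, n = 5 each; exact sign-flip permutation test, p = 0.062, adjusted p = 0.125). The IDs called lower took 4.88% ± 0.595 in vessels and 9.14% ± 0.612 in neurons, with a smaller share in vessels in all 5 animals (exact sign-flip permutation test, p = 0.062, adjusted p = 0.125).

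The difference between the strains was tested over all 38 libraries, as the vessel minus neuron difference in late SHRSP minus that in late Wistar rats. It passed for 0 of 12117 IDs in edgeR (percent called 0), with 113 at an unadjusted p under 0.05. DESeq2 called 4 and limma voom 0. With the libraries of the 2 late groups alone, 0 of 11473 passed and 318 had an unadjusted p under 0.05. ENSRNOG00000015550 differed by 0.63 on the log2 scale (SE 0.42), ENSRNOG00000018087 by 0.89 (SE 0.83), ENSRNOG00000016541 by 0.07 (SE 0.56) and ENSRNOG00000007456 by -0.85 (SE 1.17). For all 4 the standard errors leave room for differences of 2-fold or more, and a p that misses the threshold does not show that the strains were alike.

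Early SHRSP rats share the strain but not the age. In their own fit, 50 of 9015 IDs were higher in vessels (0.555%) and 480 lower (5.32%). Over the 8868 IDs tested in both SHRSP stages, the median log2 fold in this early fit was -3.54. Of the 50 higher IDs 48 were also called higher in late SHRSP, which is 96.0% of the early list and 9.14% of the late list. Of the 525 IDs called higher in late SHRSP vessels, 441 were tested in early SHRSP rats and 333 were above 0 there, against 12.4% of the 8868 IDs tested in both. The limit set by the low-count filter holds for these signs too. The lists called lower shared 29 IDs, 9.73% of the late and 6.04% of the early list. ENSRNOG00000015550 was 106-fold higher in late SHRSP vessels and 118-fold higher in early SHRSP vessels, from the separate fits, and ENSRNOG00000018087 was 61.1-fold higher in late and 49.8-fold higher in early SHRSP vessels. For these IDs the test of the difference between the stages gave -0.13 (SE 0.40) and 0.31 (SE 0.77) on the log2 scale, neither of which passed. The 2 lower IDs named did not pass in the early SHRSP fit. ENSRNOG00000016541 had a log2 fold of -1.45 there (SE 0.49, edgeR adjusted p = 0.056). ENSRNOG00000007456 had -2.59 (SE 1.83, edgeR adjusted p = 0.336). In the early Wistar fit the first passed (edgeR adjusted p = 0.0456) and the second did not (0.512). In early Wistar rats, 50 of 9070 IDs were higher in vessels (0.551%) and 37 lower (0.408%), and ENSRNOG00000015550 and ENSRNOG00000018087 had log2 folds of 5.26 (SE 0.35) and 5.07 (SE 0.56).

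Most early SHRSP vessel libraries held fewer IDs than the late ones. At 1198386 counts the late SHRSP vessels gave 9145 to 11402 IDs and the early SHRSP vessels 3680 to 9957, while the neurons gave 12415 to 13026 late and 11987 to 12969 early. Of the IDs with a count in all 5 late neuron libraries after thinning to that depth, 6822 of 10566 (64.6%) also had a count in all 5 late vessel libraries, and 187 (1.77%) in none of them. In early SHRSP rats 1788 of 10375 (17.2%) had a count in all 5 vessel libraries and 986 (9.50%) in none. Conversely, IDs present in all vessel libraries were nearly always present in neurons: 6822 of 7032 (97.0%) in late and 1788 of 1800 (99.3%) in early SHRSP rats. Most IDs of the SHRSP neurons were thus present in every late vessel library, and most were missing from at least 1 early vessel library. The same held in Wistar rats. There, 7846 of 10723 IDs of the neurons (73.2%) had a count in all 4 late vessel libraries, and 3003 of 8489 (35.4%) in all 5 early ones. All of 5 libraries is a stricter demand than all of 4, and a further 22.1% of the early IDs were in 4 of the 5. The 8489 are also limited by the early Wistar neuron library of animal 343, which gave 9151 IDs at that depth.

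**Figure D5:**
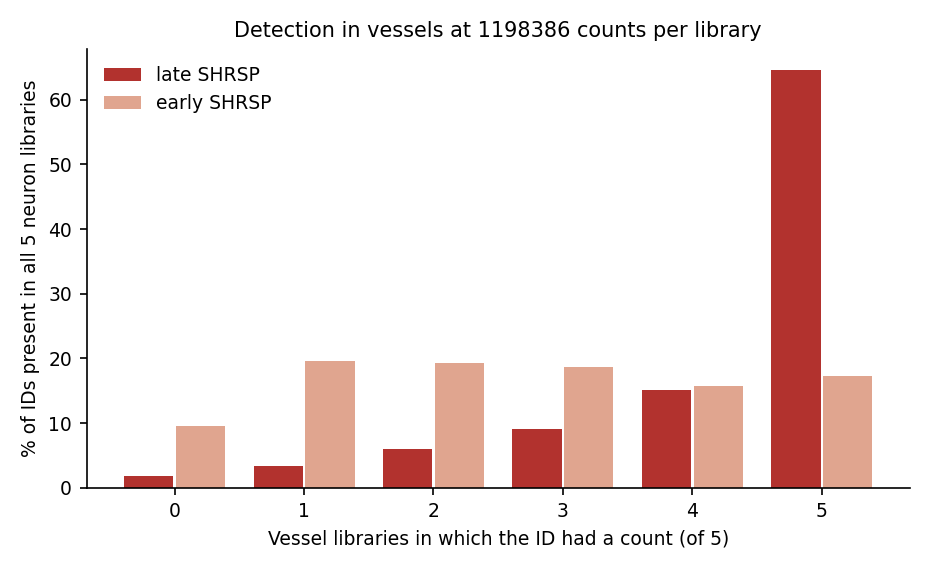
Share of the IDs with a count in all 5 neuron libraries (vertical, percent) by the number of vessel libraries of the same group in which they had a count (horizontal), after thinning all libraries to 1198386 counts, for late SHRSP (dark) and early SHRSP (light). In late SHRSP 64.6% were present in all 5 vessel libraries, and in early SHRSP 17.2%.

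The change of the vessel minus neuron difference with stage, late SHRSP minus early SHRSP, passed for 33 of 12117 IDs (0.272%), all 33 of them positive. The count was far from stable: it was 4 to 7 without single late animals (378, 379, 381, 382 or 384), 2 with only the 2 groups compared, 6 with DESeq2-type scaling and 8 without the filter on low counts. It was 245 with no replicate block (231 positive, 14 negative; 11 shared with the 33), 222 in limma voom and 3302 in DESeq2 (3282 positive, 20 negative). Over all 12117 IDs the median of this difference was 2.55 on the log2 scale, and 10471 IDs were above 0. ENSRNOG00000005726 had the smallest p. It measured 242, 140, 333, 255 and 353 CPM in the late SHRSP vessels of animals 378, 379, 381, 382 and 384, and 509, 940, 381, 521 and 693 CPM in their neurons. In the early SHRSP vessels of animals 374, 377, 380, 383 and 386 it measured 1.83, 1.24, 1.01, 133 and 0.329 CPM, and in their neurons 211, 246, 159, 332 and 260 CPM. In 4 of the 5 early vessel libraries it had 1 to 4 counts, and animal 383 stood apart from them, just below the lowest late vessel library. The difference was 5.49 (SE 0.90, edgeR adjusted p = 1.14e-05). With no replicate block it was 1.92 (SE 1.31) and did not pass (adjusted p = 0.547, in a range of 1.81e-05 to 1 over 12 alternatives).

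ENSRNOG00000004057 behaved alike, with 173, 202, 291, 245 and 267 CPM in the late SHRSP vessels of animals 378, 379, 381, 382 and 384, and 318, 484, 514, 344 and 357 CPM in their neurons. The early SHRSP vessels of animals 374, 377, 380, 383 and 386 gave 1.38, 3.09, 1.69, 227 and 2.63 CPM, and their neurons 225, 171, 187, 383 and 295 CPM. The difference was 5.04 (SE 0.92, edgeR adjusted p = 0.000285). With no replicate block it was 1.63 (SE 1.19) and did not pass (adjusted p = 0.586, in a range of 2.67e-05 to 1 over 12 alternatives). Animal 383 again stood apart, here within the range of the late vessels.

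Animal 383 was also the early SHRSP animal with the most IDs in vessels, 10207 against 4104 to 6549 in the other 4, whose vessel libraries held under 7000 IDs each. It stood apart in its neuron library too. ENSRNOG00000043866 took 17.7% of its vessel counts against 6.45% to 7.54% in the other 4, and 21.8% of its neuron counts against 5.37% to 6.74%. Both shares lay within those of the late SHRSP animals, 9.69% to 31.0% in vessels and 20.4% to 26.7% in neurons. Among early Wistar rats, animal 349 stood apart in the same measures. Its vessels held 11754 IDs, against 5833 to 8752 in the other early Wistar animals. ENSRNOG00000043866 took 40.6% of its vessel counts against 9.73% to 16.3%, and 24.6% of its neuron counts against 4.34% to 10.7%. What sets animals 383 and 349 apart was not tested. An alternative without the other 4 early SHRSP animals was chosen after seeing the data. It leaves 1 early SHRSP animal, 383, and assumes it to vary like the other groups. Since the vessel values of animal 383 were already seen near the late ones, this fit cannot decide the part of the IDs detected. The median difference was then 0.09. In that fit ENSRNOG00000005726 differed by 0.11 (SE 1.68) and ENSRNOG00000004057 by -0.04 (SE 0.65). Of the 33 IDs, 0 were called higher and 2 lower in the late SHRSP comparison. In all 33 each late SHRSP vessel library and each early SHRSP neuron library had a count, and 13 had none in at least 3 of the 5 early vessel libraries. Such gaps were not particular to the 33. Of the 10375 IDs in all 5 early SHRSP neuron libraries after thinning to 1198386 counts, 9.50% were in 0 early vessel libraries. A further 19.6% were in 1 and 19.3% in 2. The counts of the 33 were not thinned. Stage cannot be told apart from the number of IDs detected in these vessel libraries.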

How the data were processed

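Libraries were made from total RNA (PicoPure kit) by a 3' end method (QuantSeq, forward version), as the labels' protocols state, so reads lie near transcript ends. The authors deposited whole-number counts for 32883 Ensembl IDs without normalization. Tools listed in the submitters' processing notes are STAR 2.5.3a, FastQC 0.11.5, DESeq2 1.18.1 and HTSeq 0.6.1. Genome build, annotation and strand setting were not found in the sources used. The available name table (assembly GRCr8) matched 0 IDs, so none of the 25 lists of gene names could be applied, nor the planned rule for named genes. Instead, up to 2 passing IDs with the smallest p on each side are named for a comparison. The stage test had passing IDs on the positive side only, and the strain test had none. Overlapping genes and near-identical copies cannot be separated. Members and lists were chosen with earlier results of these data known.

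edgeR 4.0.16 (R 4.3.3; filterByExpr, TMM, robust quasi-likelihood F test) was fitted to the 10 late SHRSP libraries with the animal as a block, and for differences between groups to all 38 with a vessel term per group. An SE is the log2 fold divided by the root of F. Library measures were tested by exact sign flips. Alternatives used limma 3.58.1 and DESeq2 1.42.0. The pairing comes from the number at the start of the titles, read as the animal. Over 4289 IDs the deviations of the 5 pairs correlated between -0.244 and 0.181, with 1 pair over 0.1. Their median was 0.048, against -0.016 for vessel and neuron libraries of different numbers, so the pairing rests on the titles. Of 20 pairs of libraries within a group, the smallest chi-square per degree of freedom was 7.71, so none looked like a repeat. Totals of 2560625 to 4963429 counts set the precision; limits from counts cover counting error only. The p-values measure the spread between numbered samples, which includes cutting and library making.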

Additional observations from a re-analysis of the deposited data

Results flagged for a closer look

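The vessel minus neuron difference changed with stage in SHRSP rats for 33 IDs by the test of the difference itself, late minus early, and for 4 to 7 without single late animals and 2 with only the 2 groups compared. The 2 IDs with the smallest p differed by 5.49 (ENSRNOG00000005726) and 5.04 (ENSRNOG00000004057) on the log2 scale, and neither passed with no replicate block. In the early SHRSP vessels, animal 383 lay far from the other 4 animals in both, with 133 CPM against 0.329 to 1.83 CPM in ENSRNOG00000005726 and 227 CPM against 1.38 to 3.09 CPM in ENSRNOG00000004057. The early SHRSP vessel libraries of 4 of 5 animals held 4104 to 6549 IDs, and the part of this in the result was not tested. A fit without them leaves only animal 383, was chosen after its values were seen, and cannot decide this. Among early SHRSP neurons, the library of animal 374 lay far below the others, with 11987 IDs detected against 13705 to 13975, and 11987 at 1198386 counts, its own total, against 12700 to 12969. These 4 came from 49 sets of 5 values tested by Dixon's criterion, which covered late and early SHRSP values printed above. The early SHRSP shares of ENSRNOG00000043866, in which animal 383 also stood apart, were not among these sets. Chance marks about 1 set in 20, and the sets share libraries.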

How the results depend on the processing

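The count of 823 IDs between late SHRSP vessels and neurons was 2196 in DESeq2, 1250 in limma voom and 107 with all 38 libraries in the fit (84 higher, 23 lower, 96 of them shared with the 823); leaving out animals gave 444 to 684. With no replicate block it was 1223, of which 798 were shared, and the higher and lower calls numbered 831 and 392. No filter on low counts gave 486 lower IDs. Other scaling and leaving out the most abundant ID kept the count within 1.5 times. The 2 higher IDs named and the lower ENSRNOG00000016541 kept sign and call in all 12 alternatives. The lower ENSRNOG00000007456 kept its sign in all 12 and missed the threshold in 1. Between the late strains DESeq2 gave 4 calls and the other alternatives 0. The stage count of 33 was 245 with no replicate block, 6 with DESeq2-type scaling and 8 without the filter. DESeq2 gave 3302 and limma voom 222. The count was 2 with only the 2 groups compared, and 4 to 7 without single late animals (378, 379, 381, 382 or 384). Without the 4 early animals, which leaves 1 early SHRSP animal, ENSRNOG00000004057 turned to -0.0442. With no replicate block the named stage IDs did not pass (adjusted p = 0.547 and 0.586). The vessel minus neuron difference in the share of the 10 most abundant IDs, -1.23 percentage points, was 1.48 without the most abundant ID, and ran from -4.31 to 0.889 without single animals. The cause of these shifts was not tested. With 5 pairs, sign flips cannot give a p below 0.062 for a library measure.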
